A study of Mus musculus with 72 samples.

Results

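The 9 genes described here are Nnt, Tmem267, Gabra2, Atp10d, Dynlt1b, Tmem181b-ps, Tmem181c-ps, Erich5 and A930033H14Rik, out of 16216 genes measured in skeletal muscle, in brain or in both. They were chosen by name because earlier results of these data set them apart between Klotho-heterozygous (KlHET) and wild-type (WT) mice, so the KlHET against WT values of these genes are given as a description, and no test of them is read as support. All 9 were in the brain table and 7 in the muscle table, which did not list Gabra2 or Erich5, and all of them passed the filter on low counts. They lie at 5 places in the genome. Nnt and Tmem267 lie on chromosome 13, Gabra2 and Atp10d on chromosome 5, Dynlt1b, Tmem181b-ps and Tmem181c-ps on chromosome 17, Erich5 on chromosome 15 and A930033H14Rik on chromosome 10.

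The study asked how neuromuscular electrical stimulation (NMES), which makes muscle contract through current passed over the skin, changes gene expression in mice with the normal or a lowered dose of Klotho, a gene linked to ageing. RNA-seq libraries were made from hind-leg muscle (tibialis anterior with extensor digitorum longus) and from a second tissue that the labels call brain and the study's methods call prefrontal cortex. Each tissue had 12 KlHET mice given NMES, 12 KlHET controls, 6 WT mice given NMES and 6 WT controls, 36 animals and 72 libraries in all, and muscle and brain came from the same animals. KlHET mice carried 1 altered copy of Kl (strain B6;129S5-Kl tm1Lex), were bred in house and were 2 months old, as were the WT mice. NMES was given to both legs in 5 sessions at 9 mA under isoflurane and tissue was taken 24 h after the last, while controls received isoflurane alone. KlHET and WT animals carry separate series of animal numbers in the labels, and what the series stand for is not stated. Genotype cannot be told apart from anything else that differs between the series in any KlHET against WT difference given here.

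Several of these genes are known from the genetics of laboratory mice. C57BL/6J mice carry a deletion inside Nnt, which encodes a mitochondrial enzyme that passes hydride from NADH to NADP and so makes NADPH for the enzymes that remove peroxides. The same strain carries an intronic deletion that lowers Gabra2, the alpha2 subunit of the GABA-A receptor, a chloride channel of inhibitory synapses, and a premature stop codon in Atp10d, a P4-ATPase that moves lipids across membranes. Dynlt1b encodes a light chain of the dynein motor and belongs to a cluster of near-identical copies in which the Tmem181 pseudogenes are interspersed. Inbred strains differ at such places, and no strain genotype was read from these libraries.

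The RNA-seq values were deposited as CPM, the reads of a gene scaled to 1e+06 reads of its library, from which whole reads could be recovered. Depth was 14.8 to 24.5 M reads in muscle (median 18.0 M) and 16.97 to 28.0 M in brain (median 21.4 M), M standing for 1e+06 reads. Markers of muscle fibres were present in muscle and markers of neurons in brain, while transcripts of the choroid plexus and hypothalamus varied widely between brain libraries. Kl itself was read in brain at 1.12 to 19.3 CPM in KlHET NMES libraries, against 2.41 to 7.48 CPM in WT NMES libraries. In the controls it was read at 1.93 to 31.1 CPM in KlHET libraries, against 1.31 to 6.53 CPM in WT libraries. Choroid plexus transcripts, summed, reached 940 CPM in KlHET NMES and 116 CPM in WT NMES brains, and 1884 CPM in KlHET control and 82.6 CPM in WT control brains. Their part in the Kl values was not tested, and Kl did not check the genotype labels. Mitochondrial transcripts took 6.39% of the reads in the muscle of KlHET NMES replicate 9 (next lowest KlHET NMES library 20.0%) and 1.67% in the brain of WT control replicate 1 (next lowest WT control library 4.32%).

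A stretch of sequence is shown for the 2 places where it bears on what the reads can say. In the GRCm38 reference, which is C57BL/6J, Atp10d is annotated by GENCODE as a polymorphic pseudogene, and exon 12 of its 23 exons holds an in-frame stop codon after 822 open codons, with 652 more codons behind it. The stretch of exon 12 lies at chr5:72264426-72264518 on the + strand, and the stop codon is in capitals.
Atp10d: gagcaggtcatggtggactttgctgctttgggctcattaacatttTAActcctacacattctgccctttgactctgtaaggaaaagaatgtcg
The coding sequence of Dynlt1b is 339 bases long and differs at 1 base from those of Dynlt1a, Dynlt1c and Dynlt1f, so that coding reads away from that base cannot be told apart. The differing base is A21C, with the base of Dynlt1b first and that of the copies last, counted from 1 at the first base of the start codon. The first 90 coding bases are shown with that base in capitals, from GENCODE transcripts on GRCm38 with introns removed (Dynlt1b lies on the + strand and Dynlt1a on the - strand of chromosome 17). Dynlt1c and Dynlt1f have the same 90 bases as Dynlt1a.
Dynlt1b: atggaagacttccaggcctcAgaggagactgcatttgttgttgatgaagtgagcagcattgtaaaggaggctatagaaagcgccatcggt
Dynlt1a: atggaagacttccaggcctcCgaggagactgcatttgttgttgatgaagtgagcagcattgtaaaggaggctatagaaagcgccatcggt
Of all 150-base windows of the reference transcript, 80.5% in Dynlt1b were also found in another gene, against 23.2% in Tmem181b-ps, 31.7% in Tmem181c-ps, 0.299% in Tmem267 and 0% in Nnt, Gabra2, Atp10d, Erich5 and A930033H14Rik. How reads from such windows were counted is not known, so the counts of Dynlt1b and of the Tmem181 pseudogenes are uncertain.

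Nnt varied widely among KlHET muscles and lay above the WT range in nearly every KlHET animal in both tissues. The gene is at chr13:119335448-119408997 on the - strand (GRCm38). In muscle after NMES, the lowest, median and highest values were 14.7, 64.1 and 117 CPM in KlHET, against 14.01, 20.4 and 24.7 CPM in WT. In control muscle they were 33.9, 56.4 and 99.7 CPM in KlHET, against 14.5, 22.5 and 28.5 CPM in WT. The controls did not overlap, while among NMES muscles 2 KlHET animals, replicates 8 and 11, stayed within the range of all WT muscles. The log2 difference, KlHET minus WT, was 1.32 ± 0.30 after NMES and 1.21 ± 0.30 in controls (SE of the model). In brain the difference was smaller, at 0.52 ± 0.09 and 0.37 ± 0.09. Brain Nnt was lowest, median and highest at 20.6, 28.7 and 36.3 CPM in KlHET after NMES, against 18.4, 19.6 and 21.1 CPM in WT. Control brains had 19.3, 26.7 and 28.6 CPM in KlHET, against 15.9, 20.0 and 23.1 CPM in WT. The groups overlapped in brain under both treatments, and 3 KlHET brains, NMES replicates 8 and 11 and control replicate 1, lay within the range of all WT brains. In bulk tissue such as this, fewer cells of a type and less RNA per cell cannot be told apart.

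Tmem267, a gene for a predicted membrane protein that lies 79.0 kb from Nnt, at chr13:119488039-119611059 on the + strand, was alone among the 9 in being lower in KlHET mice. After NMES its lowest, median and highest muscle values were 9.04, 11.7 and 18.9 CPM in KlHET, against 20.7, 23.4 and 33.6 CPM in WT. In control muscle they were 6.44, 12.7 and 19.7 CPM in KlHET, against 22.2, 26.0 and 37.2 CPM in WT. All 24 KlHET muscles were below all 12 WT muscles. The muscle log2 differences were -1.14 ± 0.18 after NMES and -1.21 ± 0.18 in controls. Brain values were 14.9, 20.1 and 24.0 CPM in KlHET NMES libraries, against 22.4, 33.6 and 44.9 CPM in WT NMES libraries. Among control brains they were 10.8, 17.5 and 26.7 CPM in KlHET, against 30.1 and 36.4 CPM at the lowest and median and 56.8 CPM at the highest in WT. The control brains did not overlap and the NMES brains did, 19 of 24 KlHET brains lying below every WT brain. The brain log2 differences were -0.81 ± 0.15 after NMES and -1.10 ± 0.15 in controls. Of the exonic bases of Tmem267, 2.99% overlap 3110070M22Rik and 3.34% overlap Gm48265 on the opposite strand, and the strand setting of the counting is not given in any source at hand.

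Gabra2, at chr5:70957597-71095849 on the - strand, was measured in brain alone and fell into separate levels among the KlHET animals. After NMES the lowest, median and highest values were 30.5, 63.3 and 78.6 CPM in KlHET, against 30.0, 31.3 and 35.9 CPM in WT. In controls the lowest and median were 38.0 and 64.9 CPM and the highest 102 CPM in KlHET, against 25.5, 33.2 and 38.0 CPM in WT. The control groups did not overlap, but by a margin of 0.0629% of the highest WT value. KlHET NMES replicates 1, 3 and 8, at 35.0, 30.5 and 35.9 CPM, were within the WT range, and KlHET control replicate 1, at 38.0 CPM, was just above it. The other 20 KlHET brains had 54.8 to 102 CPM, so that no KlHET animal had a value between 38.0 and 54.8 CPM. The log2 difference was 0.79 ± 0.17 after NMES and 0.99 ± 0.17 in controls, means that run over both levels. KlHET NMES replicate 8 was also within the WT range for Nnt in both tissues, KlHET control replicate 1 was within it for brain Nnt, and KlHET NMES replicates 1 and 3 were above it for Nnt.

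Atp10d lies 1107 kb from Gabra2, at chr5:72203329-72298775 on the + strand, and its differences were smaller. Brain values after NMES were 1.97 CPM at the lowest, 3.86 at the median and 4.195 CPM at the highest in KlHET, against 1.97, 2.45 and 4.37 CPM in WT. In control brains they were 3.14, 4.44 and 5.95 CPM in KlHET, against 1.52, 2.36 and 2.996 CPM in WT. The control brains did not overlap, while the NMES brains overlapped nearly whole. The log2 difference in brain was 0.26 ± 0.14 after NMES and 0.75 ± 0.14 in controls. In muscle after NMES the lowest, median and highest values were 2.95, 4.59 and 7.002 CPM in KlHET, against 2.58, 3.11 and 5.07 CPM in WT. In control muscle they were 2.68, 5.96 and 7.75 CPM in KlHET, against 3.28, 3.56 and 3.79 CPM in WT. The muscle groups overlapped under both treatments, with log2 differences of 0.34 ± 0.19 after NMES and 0.49 ± 0.19 in controls.

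**Figure D1:**
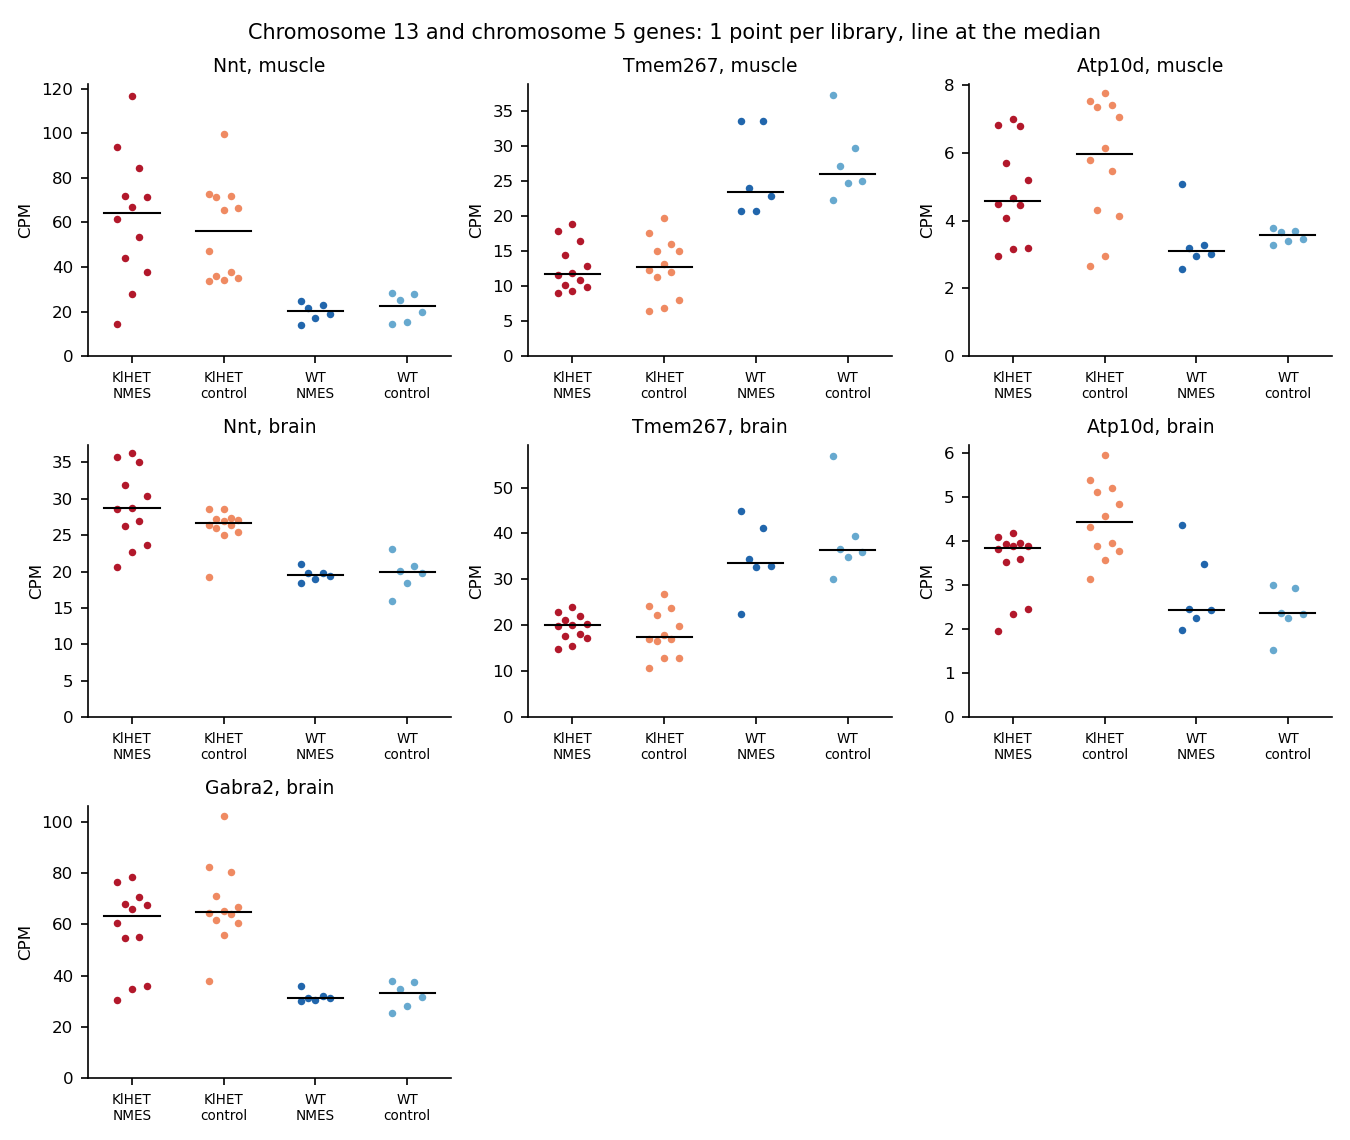
CPM (vertical axis, from 0) of Nnt, Tmem267, Gabra2 and Atp10d by group. KlHET NMES and KlHET control (12 libraries each) stand left of WT NMES and WT control (6 each). There is 1 point per library and a line at each group's median. Tmem267 is lower in KlHET, with no overlap in muscle, and in the Gabra2 panel 4 KlHET brains, at 30.5 to 38.0 CPM, lie apart from the other 20, at 54.8 to 102 CPM.

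Dynlt1b, at chr17:6430112-6436296 on the + strand, was higher in KlHET in both tissues. Muscle values after NMES were 5.45, 17.2 and 27.7 CPM at the lowest, median and highest in KlHET, against 6.30, 7.50 and 8.46 CPM in WT. In control muscle they were 8.70, 13.3 and 20.3 CPM in KlHET, against 4.90, 6.51 and 9.20 CPM in WT. The lowest KlHET value was KlHET NMES replicate 9, the library with few mitochondrial reads, and 22 of 24 KlHET muscles were above every WT muscle. The muscle log2 differences were 0.95 ± 0.22 after NMES and 0.87 ± 0.22 in controls. In brain the lowest, median and highest were 3.19, 4.77 and 7.96 CPM in KlHET after NMES, against 1.76, 2.09 and 2.75 CPM in WT, with no overlap. In control brains they were 2.00, 4.44 and 5.45 CPM in KlHET, against 0.676, 2.02 and 2.65 CPM in WT, overlapping through 1 KlHET library. The brain log2 differences were 0.93 ± 0.17 after NMES and 1.01 ± 0.17 in controls. KlHET NMES replicate 9 had 4.83 CPM in brain, above every WT brain.

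Tmem181b-ps, a transcribed pseudogene at chr17:6438524-6467022 on the - strand, lies 2.23 kb from Dynlt1b and was also higher in KlHET. Brain values after NMES were 83.7, 123 and 183 CPM at the lowest, median and highest in KlHET, against 32.1, 48.3 and 59.9 CPM in WT. In control brains they were 49.3, 91.8 and 153 CPM in KlHET, against 28.9, 38.2 and 57.4 CPM in WT. The NMES brains did not overlap, and 1 KlHET control brain was within the WT range. The brain log2 differences were 1.42 ± 0.20 after NMES and 1.21 ± 0.20 in controls. Muscle values after NMES were 9.62, 18.2 and 38.8 CPM in KlHET, against 4.25, 6.33 and 10.96 CPM in WT. In control muscle they were 8.49, 15.8 and 23.5 CPM in KlHET, against 4.97, 6.30 and 7.94 CPM in WT. The control muscles did not overlap and the NMES muscles did. The log2 differences in muscle were 1.22 ± 0.20 after NMES and 1.13 ± 0.20 in controls. Scaled to exonic length, brain Tmem181b-ps had a median level of 28.2 CPM per kb in KlHET and 10.2 CPM per kb in WT, above its coding relative Tmem181a, at 6.03 CPM per kb in KlHET and 4.68 CPM per kb in WT.

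Tmem181c-ps, at chr17:6613753-6639790 on the - strand, lies 147 kb further on and was read at lower levels. In brain after NMES it had 4.84, 7.09 and 10.4 CPM at the lowest, median and highest in KlHET, against 2.88, 3.78 and 5.97 CPM in WT. In control brains it had 4.73, 6.15 and 8.59 CPM in KlHET, against 2.49, 3.47 and 5.36 CPM in WT. These groups overlapped, and 15 of 24 KlHET brains were above every WT brain, with log2 differences of 0.74 ± 0.15 after NMES and 0.75 ± 0.15 in controls. In muscle it was near the low end of what was measured, at 0.735 to 3.16 CPM in KlHET after NMES, against 0.666 to 1.36 CPM in WT, and at 0.707 to 1.96 CPM in KlHET controls, against 0.502 to 1.26 CPM in WT controls. The muscle groups overlapped and the log2 differences were 0.25 ± 0.18 after NMES and 0.42 ± 0.18 in controls, sizes that moved to 0.14 and 0.22 with 2 CPM added in place of 0.5 and to 0.42 and 0.65 with edgeR.

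Erich5, at chr15:34453305-34473892 on the + strand, was measured in brain alone and from few reads, 7 to 50 in KlHET libraries, against 0 to 11 in WT libraries. After NMES its lowest, median and highest values were 0.497, 1.15 and 2.81 CPM in KlHET, against 0, 0.319 and 0.646 CPM in WT. In controls they were 0.399, 0.955 and 2.10 CPM in KlHET, against 0.0922, 0.168 and 0.406 CPM in WT. The groups overlapped narrowly, with 20 of 24 KlHET brains above every WT brain. The log2 difference was 1.28 ± 0.22 after NMES and 1.03 ± 0.22 in controls with 0.5 CPM added before the logarithm. With 0.1 CPM added it was 2.16 and 1.77, and with 2 CPM added 0.57 and 0.43, so that its size rests on the value added while its direction does not.

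A930033H14Rik, a gene annotated as protein coding and known by a clone name, is at chr10:69209762-69213098 on the - strand. Brain values after NMES were 2.17 CPM at the lowest, 4.32 at the median and 8.07 CPM at the highest in KlHET, against 1.12, 2.05 and 2.53 CPM in WT. In control brains they were 1.85, 4.29 and 7.80 CPM in KlHET, against 1.17, 1.55 and 1.91 CPM in WT. The brain groups overlapped, with 20 of 24 KlHET brains above every WT brain and log2 differences of 1.03 ± 0.22 after NMES and 1.14 ± 0.22 in controls. Muscle values were 1.13 to 4.08 CPM in KlHET after NMES, against 0.560 to 2.91 CPM in WT. In control muscle they were 0.578 to 4.04 CPM in KlHET, against 0.936 to 2.02 CPM in WT. The muscle groups overlapped and the log2 differences were 0.56 ± 0.24 after NMES and 0.62 ± 0.24 in controls, or 0.34 and 0.39 with 2 CPM added.

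**Figure D2:**
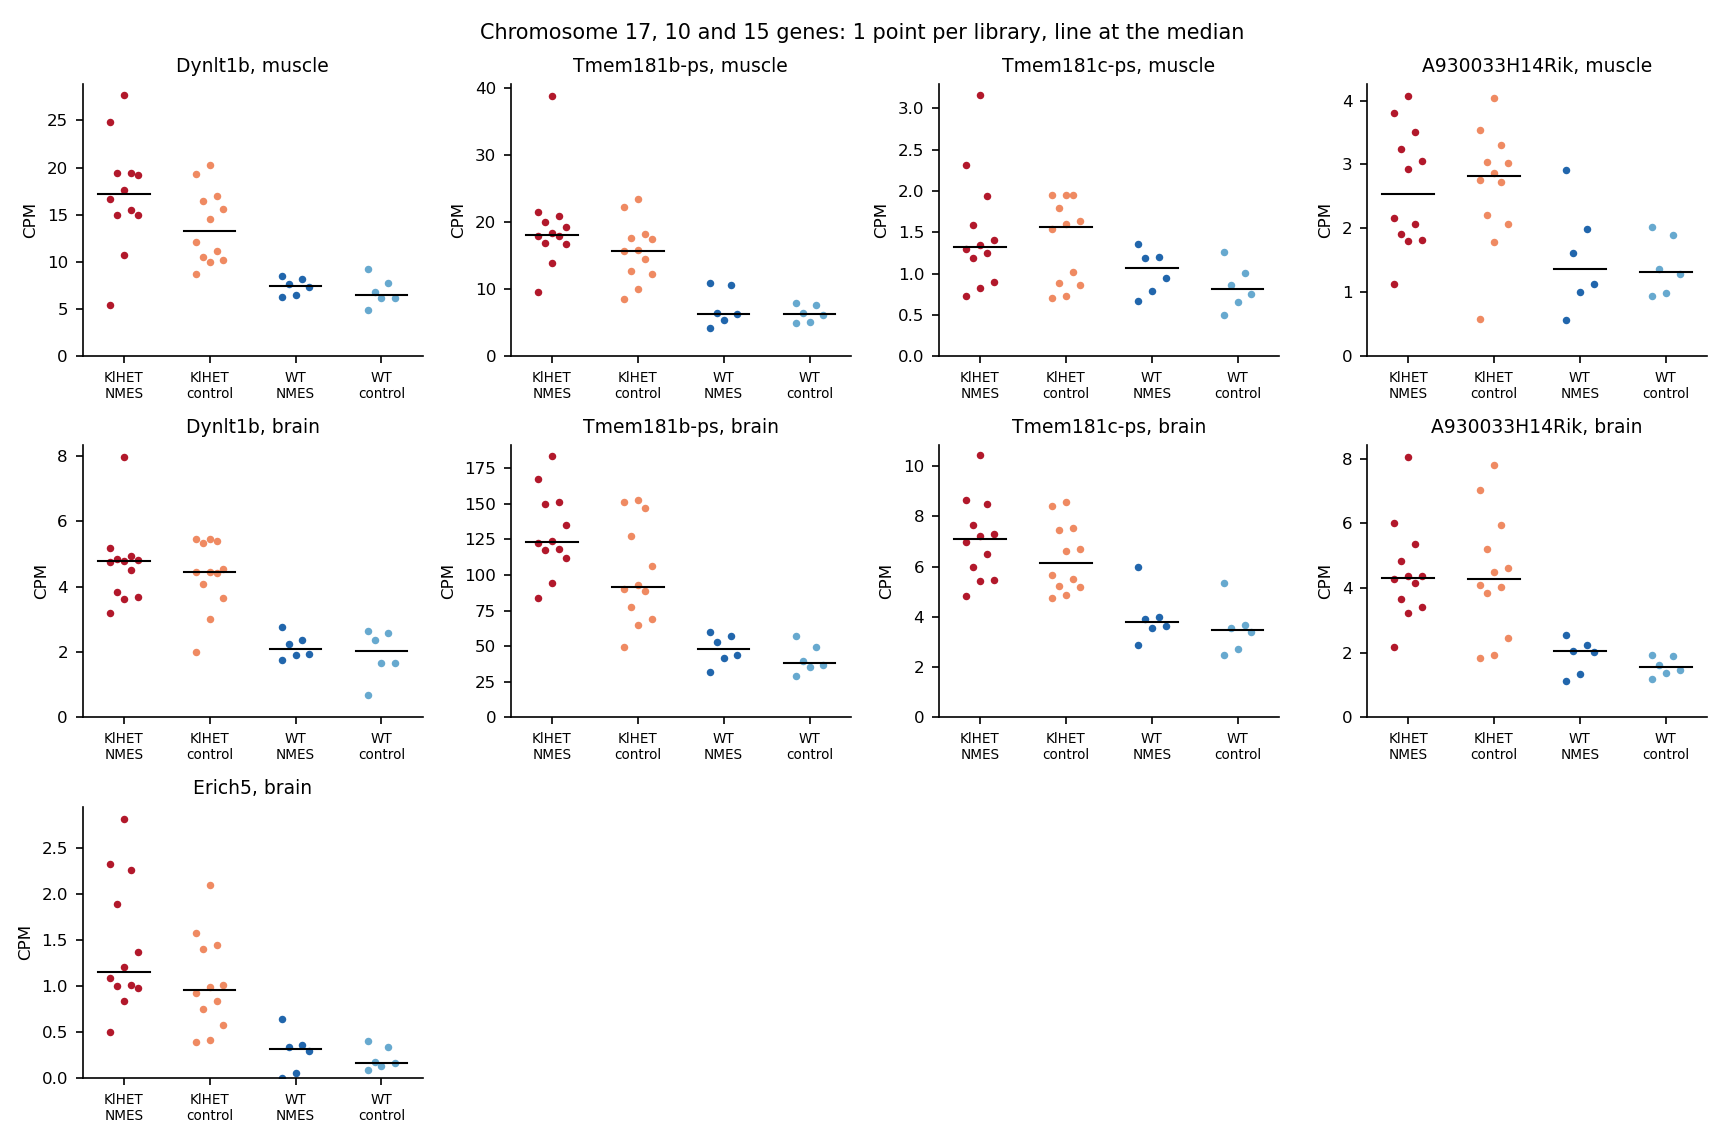
CPM (vertical axis, from 0) of Dynlt1b, Tmem181b-ps, Tmem181c-ps, Erich5 and A930033H14Rik by group. KlHET NMES and KlHET control (12 libraries each) stand left of WT NMES and WT control (6 each). There is 1 point per library and a line at each group's median. Dynlt1b and Tmem181b-ps do not overlap between genotypes in NMES brains, while Tmem181c-ps overlaps in both tissues.

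Since these genes were chosen on the KlHET against WT contrasts, their counts there follow from the choice and nothing is read from them. They are given once, to place the genes in the table as a whole. In brain 8 of 9 were below an adjusted p of 0.05 (limma, Benjamini-Hochberg) after NMES and 7 of 9 in controls, as were 0.0974% and 0.0714% of all 15400 genes fitted. In muscle 4 of 7 were after NMES and 4 of 7 in controls, as were 19.1% and 6.0% of 13505 genes. The KlHET and WT libraries of 2 of the 9 genes did not overlap in NMES brains and of 3 in control brains, against 0.026% and 0.0649% of all genes. For muscle these numbers were 1 of 7 after NMES and 3 of 7 in controls, against 1.2% and 0.615% of all genes. The median size of the log2 difference in brain was 0.81 after NMES and 1.01 in controls over the 9 genes, against 0.05 and 0.08 over all genes. In muscle it was 0.95 and 0.87 over the 7 genes, against 0.18 and 0.14 over all genes. In control brains the genes on either side of that threshold were Bend4 just inside (log2 difference 0.48) and Erich5 just outside (1.03), and in NMES brains Cfap54 just inside (1.27) and Mid1 just outside (-0.67).

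How the 9 genes varied from animal to animal was described over the 24 KlHET mice against the range of the 12 WT mice. The number of genes outside that range was 2 to 7 of 7 in muscle, with a median of 5 and all 7 outside in 4 animals. In brain it was 5 to 8 of 9, with a median of 7, and in no animal were all 9 outside. That last count rested on WT NMES replicate 3, whose brain Atp10d of 4.37 CPM stood above the other WT brains (up to 3.48 CPM), since without that library all 9 were outside in 7 animals. Leaving out each WT library in turn was an alternative added after seeing the data. KlHET control replicate 9 had the fewest in muscle, where Nnt and Tmem267 alone were outside. No gene in any animal was on opposite sides of the WT range in muscle and brain.

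Muscle and brain of the same animal were compared for the 7 genes read in both. Tmem267 was below the WT range in both tissues in 19 of 24 KlHET animals and in muscle alone in 5. Nnt was above it in both tissues in 21, in muscle alone in 1 and in neither in 2, the animals named above. Dynlt1b was above it in both tissues in 22 animals and Tmem181b-ps in 20, against 10 for A930033H14Rik, 8 for Tmem181c-ps and 4 for Atp10d. Single WT libraries set some of these limits. Without the brain of WT NMES replicate 3 Atp10d was outside in both tissues in 11 animals and in brain in 20 rather than 6, and without the muscle of WT NMES replicate 1 it was outside in both in 6. Without the muscle of WT NMES replicate 3 A930033H14Rik was outside in both in 16 animals and in muscle in 18 rather than 11, and without the brain of WT NMES replicate 4 Tmem267 was below in both in all 24. Over the 24 KlHET animals, Pearson's r between the tissues was 0.83 for Tmem267 (Spearman's rho 0.85, r 0.77 without the 2 animals farthest from the median in muscle) and 0.66 for Nnt (rho 0.63, r 0.47 without the 2). It was 0.61 for A930033H14Rik (rho 0.44, r 0.36 without 2), 0.39 for Tmem181b-ps (rho 0.46, r 0.46 without 2) and 0.29 for Dynlt1b (rho 0.44, r 0.53 without 2). Atp10d and Tmem181c-ps had r of 0.10 and 0.06. All 12737 genes compared had a median r of 0.05, with the 5th and 95th percentiles at -0.33 and 0.45. Over the 12 WT animals r was 0.85 for Tmem267 (rho 0.79, r 0.73 without 2) and 0.42 for Nnt (rho 0.27, r 0.72 without 2), and -0.34 to 0.33 for the other 5 genes. For those 5, leaving out the 2 farthest animals changed the WT values to between -0.25 and 0.83, turning Atp10d from -0.02 to 0.83 and A930033H14Rik from -0.34 to 0.48, so that these WT values rest on few animals. All r values were taken on log2 values centred within treatment, and the tissues were scaled separately, so these are descriptions.

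**Figure D3:**
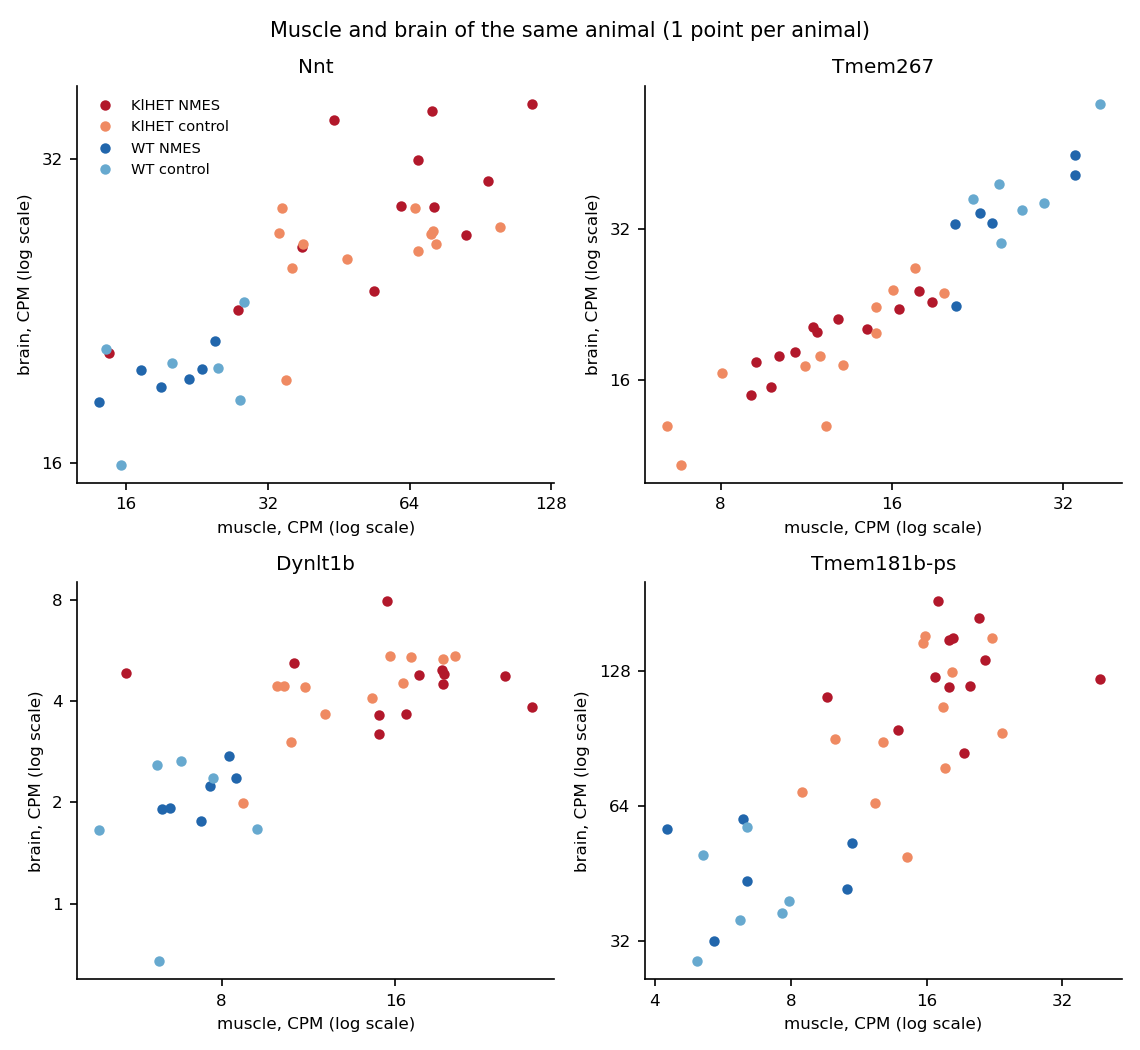
CPM in muscle (horizontal, log scale) against CPM in brain (vertical, log scale) of Nnt, Tmem267, Dynlt1b and Tmem181b-ps, with 1 point per animal (24 KlHET and 12 WT) coloured by group. Tmem267 runs along 1 diagonal through both genotypes, KlHET at the low end, with r of 0.83 within KlHET and 0.85 within WT animals, and for Nnt KlHET NMES replicates 8 and 11 lie among the WT animals.

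Genes at the same place did not always vary together among the 24 KlHET animals, where the log2 values were centred within treatment. In muscle, r was 0.72 between Dynlt1b and Tmem181b-ps and 0.55 between Tmem181b-ps and Tmem181c-ps, but -0.30 between Nnt and Tmem267. In brain it was 0.79 between Tmem181b-ps and Tmem181c-ps, 0.40 between Dynlt1b and Tmem181b-ps and 0.38 between Dynlt1b and Tmem181c-ps. Gabra2 and Atp10d, with no 150-base window found in another gene, had a brain r of 0.51. Brain Nnt and Tmem267 had an r of -0.03. Pairs on 1 chromosome had a median r of 0.33 in muscle (4 pairs) and 0.40 in brain (5 pairs), and pairs on different chromosomes 0.00 (17 pairs) and -0.06 (31 pairs). The brain pairs on different chromosomes had a lowest r of -0.35 and a highest of 0.55, the latter for Tmem181c-ps with Erich5. With the sign left aside, their median r was 0.22, against 0.40 for brain pairs on 1 chromosome. The part that sequence shared between the copies on chromosome 17 plays in these values was not tested.

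The genes whose levels were most like each of the 9 (the 3 with the largest correlation in size over the 24 KlHET libraries) were looked up on the map. Of 27 such genes in brain, 10 were on the same chromosome as the gene they resembled and 5 lay within 5 Mb of it. Of 21 in muscle, 2 were on the same chromosome, Dynlt1a (r = 0.86) and Dynlt1c (r = 0.83), both copies of Dynlt1b. Among the 5 within 5 Mb in brain, Tmem181a and Tmem181b-ps also share sequence with the gene they resembled. No share of all genes was worked out for these counts, so they are not read as clustering. In brain the closest to Tmem267 was 4833420G17Rik (r = 0.78), the closest to Tmem181b-ps was Tmem181a (r = 0.85), and the closest to Erich5 was Cthrc1 (r = -0.72), a secreted collagen-associated protein whose gene starts 4.62 Mb away. Cthrc1 itself had 2.97 ± 1.74 CPM in KlHET and 6.74 ± 1.17 CPM in WT brains after NMES (SD, log2 difference -1.27) and did not pass the test over all genes (limma, adjusted p = 0.265). A930033H14Rik was closest to the pseudogene Tdg-ps2 (r = 0.88) and went opposite to Zfp781 (r = -0.81), both elsewhere on chromosome 10. Brain Nnt was closest to Ormdl2 (r = 0.69) and muscle Nnt to Neu2 (r = 0.76), which lie on other chromosomes.

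The response of the 9 genes to NMES was not itself used to choose them and was tested. The same libraries entered the KlHET against WT contrasts that chose the genes, and the difference in response is the difference between those contrasts. The tests are therefore not independent of the choice. None of the 9 genes passed in either tissue, within KlHET mice, within WT mice or for the difference between those responses. The adjusted p (limma) was 0.401 and above in muscle and 0.999 and above in brain. Of all genes, 0.644% passed in KlHET muscle, 0.0148% in WT muscle and 0.0% for the interaction in muscle and in all 3 brain contrasts. In muscle the log2 difference, NMES minus control, ran from -0.16 to 0.30 in KlHET and from -0.02 to 0.25 in WT, with Tmem181b-ps highest in KlHET. In brain it ran from -0.32 to 0.42 in KlHET and from -0.17 to 0.21 in WT. At an unadjusted p below 0.05 there were 2 of the 9 genes in KlHET brain, where 2.04% of all genes had such a p. These were Atp10d (-0.32, 95% interval -0.56 to -0.08, limma p = 0.0102) and Tmem181b-ps (0.42, interval 0.09 to 0.76, limma p = 0.0150). The Atp10d response in brain differed between KlHET and WT mice by -0.49 (interval -0.91 to -0.08, limma p = 0.0208), again without passing the adjustment, where 2.95% of all genes had an unadjusted p below 0.05. The other contrasts had none of the 9 genes at that level, beside 2.73% of all genes in WT brain, 13.9% in KlHET muscle, 8.89% in WT muscle and 3.52% for the muscle interaction. edgeR's quasi-likelihood test and DESeq2 passed 0 of the 9 genes as well. Over all 6 contrasts the 95% intervals reached from -0.91 to 0.96, so that responses, or differences in response, of nearly that size lay within the interval of some gene.

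**Figure D4:**
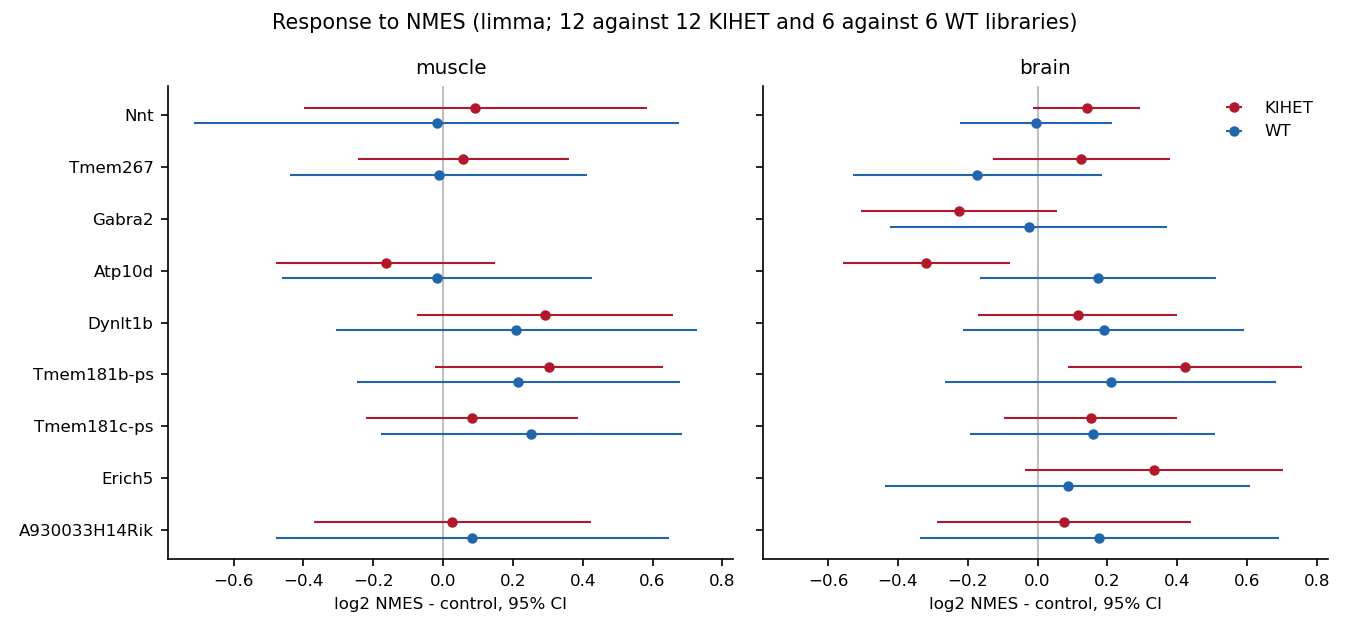
Log2 difference NMES minus control (horizontal axis) of the 9 genes with 95% intervals (bars, limma), for KlHET (12 against 12 libraries) and WT (6 against 6), muscle left and brain right. In KlHET brain the intervals of Atp10d (-0.56 to -0.08) and Tmem181b-ps (0.09 to 0.76) leave out 0 before adjustment, and no gene passes the adjusted test.

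Genes that start within 5 Mb of the 9 were not chosen on these data, and their KlHET against WT differences were tested. In brain 1 of 184 neighbours passed after NMES and 1 of 184 in controls (limma, 0.543% each, against 0.0974% and 0.0714% of all genes). After NMES this was Rpl30, which encodes a ribosomal protein and lies beside Erich5, at 2.73 ± 0.750 CPM in KlHET and 5.09 ± 1.35 CPM in WT (SD), a log2 difference of -0.80 (adjusted p = 0.00513). In control brains Rpl30 had a log2 difference of -0.40 and did not pass (limma, adjusted p = 0.318). The control neighbour was Bend4 on chromosome 5, at 14.2 ± 2.19 CPM in KlHET and 9.82 ± 1.88 CPM in WT (SD), with a log2 difference of 0.48 (limma, adjusted p = 0.0224). Bend4 no longer passed without WT control replicate 1, and neither gene passed in a fit of the compared groups alone. In muscle Rpl30 was lower in KlHET after NMES (-0.72) and in controls (-0.83), both past the test. Sequence shared with other genes was looked up for the 9 genes and their copies alone. How far reads of Rpl30 match other genes was therefore not examined.

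In muscle 38 of 154 neighbours passed after NMES (24.7%, against 19.1% of all genes; 17 higher and 21 lower in KlHET) and 16 of 154 in controls (10.4%, against 6.0%; 7 higher and 9 lower). On chromosome 13 these were 7 of 19 after NMES and 2 of 19 in controls, among them the chemokine gene Ccl28 (-0.76 and -0.82) and the zinc-finger gene Zfp131 (-0.34 and -0.38), both beyond Tmem267. Ccl28 was near the 0.5 CPM added, with muscle means of 0.233 CPM in KlHET and 0.699 CPM in WT after NMES. The control means were 0.273 CPM in KlHET and 0.833 CPM in WT. In brain Ccl28 had log2 differences of -0.69 and -0.77, with adjusted p of 0.456 and 0.194 by limma. On chromosome 17, 11 of 35 passed after NMES and 6 of 35 in controls, including Tmem181a (0.65 and 0.50), the phosphoinositide phosphatase gene Synj2 (0.75 and 0.55) and Mpc1, a subunit of the mitochondrial pyruvate carrier (-0.37 and -0.26). These 35 hold Tmem181a, Dynlt1a and Dynlt1c, which share sequence with the chosen genes, so that their counts are not independent of the choice. Chromosome 15 had 16 of 38 after NMES and 3 of 38 in controls, including Cox6c, a subunit of cytochrome c oxidase (-0.64 and -0.38). Chromosome 10 had 3 of 20 under each treatment, including Rtkn2 (0.87 and 0.84) and the chromatin regulator Arid5b (0.88 and 0.75). Rtkn2 was low too, with means of 0.828 CPM in KlHET and 0.179 CPM in WT after NMES. In controls its means were 0.964 CPM in KlHET and 0.243 CPM in WT. Chromosome 5, around Gabra2 and Atp10d, had 1 of 42 after NMES and 2 of 42 in controls, a share below that of all genes, with the cytoskeletal gene Limch1 past the test in both (0.30 and 0.27). The shares of all genes themselves are large in muscle, and no test set the neighbours against the rest.

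**Figure D5:**
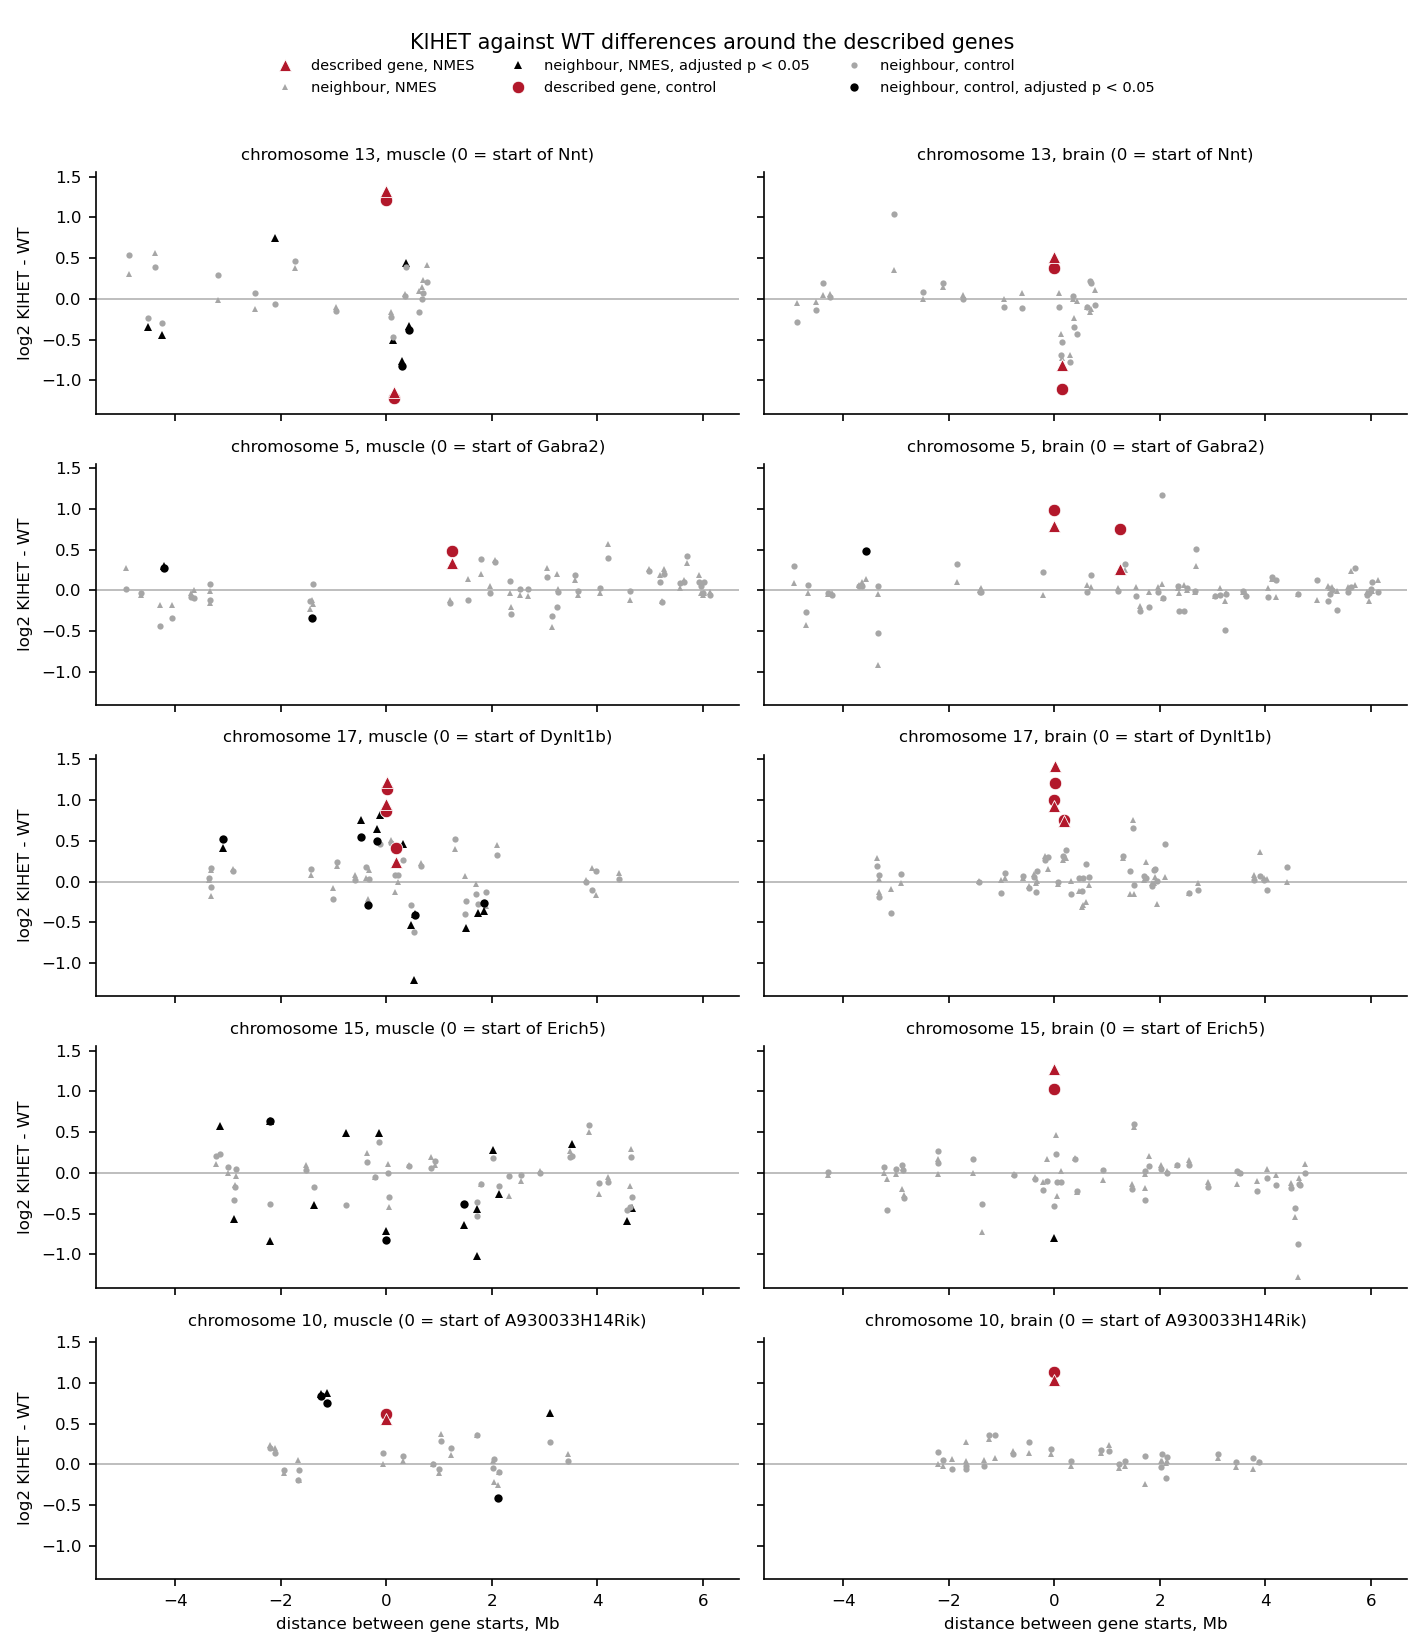
Log2 difference KlHET minus WT (vertical axis) of genes against the distance in Mb between gene starts (horizontal axis, 0 at the start of the first described gene of each chromosome), muscle left and brain right, triangles for NMES and circles for controls. Red points are the 9 described genes, black points are neighbours with a limma adjusted p below 0.05 and grey points the other neighbours. In brain the only black points are Rpl30 after NMES (-0.80) and Bend4 in controls (0.48).

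The near-identical Dynlt1 copies, and Tmem181a, the coding relative of the Tmem181 pseudogenes, were tested in the same way. Tmem181a, Dynlt1a and Dynlt1c are also counted among the neighbours above, and the Dynlt1 copies among the dynein chains below. Dynlt1a was higher in KlHET muscle after NMES (log2 difference 0.82, adjusted p = 0.00536) and had a difference of 0.46 in controls (adjusted p = 0.159, limma). In brain its differences were 0.16 and 0.30, with an adjusted p of 0.416 for the control value. Dynlt1c and Dynlt1f passed in neither tissue. Tmem181a was higher in KlHET muscle under both treatments (adjusted p = 0.00114 after NMES and 0.0186 in controls, limma), and in brain had differences of 0.31 and 0.26 that did not pass (adjusted p = 0.438 and 0.354). The Dynlt1 copies share much of their sequence, while 17.5% of the 150-base windows of Tmem181a were found in another gene. How reads that match several genes were counted is not given in any source at hand.

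The GABA-A receptor genes beside Gabra2 were not called in brain. Gabrg1, the gamma1 subunit gene, had log2 differences of -0.05 after NMES and 0.22 in controls (adjusted p = 0.584 for the control value, limma). Gabra4, the alpha4 subunit gene, had 0.06 and -0.02, and Gabrb1, the beta1 subunit gene, had 0.04 and 0.18, none past the test. Over the list of GABA-A receptor subunits 0 of 13 passed in brain and 0 of 3 in muscle under either treatment, by limma, edgeR and DESeq2 alike, except that 1 passed in control muscle by limma with total-count scaling. At an unadjusted p below 0.05 there were 0 in brain and 1 in muscle after NMES, and 1 in brain and 1 in muscle in controls. No share of all genes at that unadjusted level is given here, so nothing is read from these counts.

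The other lists followed the known roles of Nnt, Atp10d and Dynlt1b. Of 17 genes listed for mitochondrial NADPH supply or antioxidant defence, 5 passed in muscle after NMES and 4 in controls. After NMES 4 were lower in KlHET and 1 higher, the malic enzyme gene Me2, at 0.47, and in controls all were lower. With libraries scaled by their total counts, 2 passed after NMES and 2 in controls, with the direction of all kept. The lower genes included the peroxidases Gpx4 (-0.43 after NMES and -0.30 in controls), Prdx5 (-0.27 and -0.42) and Prdx3 (-0.25 and -0.20) and the mitochondrial thioredoxin Txn2 (-0.28 and -0.29). Of 11 P4-ATPases and their subunits, 5 passed after NMES (4 higher and 1 lower) and 2 in controls, both higher, Atp11a (0.45 and 0.39) and Atp9a (0.34 and 0.33). Of 12 other dynein chains, 5 passed after NMES (4 higher and 1 lower) and 0 in controls by limma, where 2 had an unadjusted p below 0.05 and edgeR and DESeq2 each passed 1. The heavy chain gene Dync1h1 had a difference of 0.50 and the light intermediate chain gene Dync1li2 of 0.28 after NMES. In brain 0 of 57 genes on the 4 lists passed under either treatment by limma, edgeR or DESeq2. At an unadjusted p below 0.05 there were 1 after NMES and 7 in controls. With no share of all genes at that unadjusted level given here, nothing is read from these counts or from that of the dynein chains. In muscle the 4 lists together had 15 of 43 past the test after NMES and 6 of 43 in controls, beside 19.1% and 6.0% of all genes. With the compared groups alone in the fit, the count after NMES was 9.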

How the data were processed

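The authors aligned paired 150-base reads to mm10 with Rsubread and deposited 1 table per tissue of CPM, reads of a gene scaled to 1e+06 reads of its library. Their strand setting was not given in the sources used here. All values came back as whole reads (100% within a relative tolerance of 1e-06), and 0 columns were left without a sample. A deposited log2 average CPM column and the authors' own comparison columns were not used. The 9 genes and the lists were chosen with earlier results of these data known.

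The main test was limma (R 4.3.3, limma 3.58.1, trend and robust options, 2-sided), fitted to log2 of TMM-scaled CPM plus 0.5, with the 36 libraries of a tissue in 1 fit of 4 group means and Benjamini-Hochberg adjustment over genes past edgeR's filter on low counts (threshold 0.05). The fold changes are therefore on the log2(CPM + 0.5) scale and understate changes of low genes. Muscle and brain were scaled separately and not tested against each other. edgeR's quasi-likelihood test (4.0.16) and DESeq2 (1.42.0) on the recovered reads were alternatives, as were total-count and RLE scaling, pseudocounts of 0.1 and 2, no filter, the compared groups alone, a term for Xist against Y-linked genes, leaving out the library with fewest mitochondrial reads, and neighbour windows of 2 and 10 Mb in place of 5 Mb. The test was checked on simulated data. Labels name each library as 1 animal. All labelled animals were used, although the study's text counts fewer KlHET controls than the labels.

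Named were the 9 genes, the 3 genes most like each, up to 4 neighbours per locus and 4 list genes per tissue with the smallest p, or the 2 nearest where none passed, and Kl, the copies and the GABA-A receptor genes beside Gabra2. Me2 was named after its value was seen. The printed positions and sequences of the 9 genes and their copies came from GENCODE on GRCm38. Neighbour windows and distances to the most alike genes used RefSeq positions on GRCm38. These were joined by Entrez identifier for 99.3% of muscle and 99.2% of brain genes.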

Additional observations from a re-analysis of the deposited data

Results flagged for a closer look

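Of the 32 WT groups of 6 libraries examined for the 9 genes, 4 had a library set apart from the rest of its group, where chance would give 1.6. The KlHET groups of 12 are too large for this test and were not examined. Tmem267 stood at 56.8 CPM in the brain of WT control replicate 2, the next value being 39.4 CPM. Gabra2 stood at 35.9 CPM in the brain of WT NMES replicate 1 (next 32.2 CPM), a value at the level of KlHET NMES replicate 8. Atp10d stood at 5.07 CPM in the muscle of WT NMES replicate 1 (next 3.28 CPM). Tmem181c-ps stood at 5.97 CPM in the brain of WT NMES replicate 2 (next 3.99 CPM). The Tmem267, Atp10d and Tmem181c-ps values are the highest of all 12 WT libraries of their tissue, and those of Atp10d and Tmem181c-ps are the limits above which KlHET animals were counted.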

How the results depend on the processing

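All KlHET against WT differences of the 9 genes kept their direction under all 10 alternatives. Those that moved by over 1.5 times were Erich5, given in the report and at 2.31 after NMES and 2.18 in controls with edgeR, Tmem181c-ps in muscle (0.14 and 0.22 with 2 CPM added, 0.42 and 0.65 with edgeR or DESeq2) and A930033H14Rik in muscle (0.34 and 0.39 with 2 CPM added). None of the 9 genes passed for NMES under any alternative. Of 498 single values of neighbours, 471 kept their call, 18 lost it and 9 gained it, and none reversed. Brain neighbours past the test after NMES, 1 of 184, became 2 with DESeq2 and 0 with the compared groups alone. In controls, 1 of 184 became 3 with DESeq2 and 0 with a window of 2 Mb, with the compared groups alone and without WT control replicate 1. Muscle neighbours became 23 after NMES with a window of 2 Mb and 75 with 10 Mb, and 28 in controls with 10 Mb, as the windows hold other numbers of genes. List genes past the test in NMES muscle became 9 with the compared groups alone, and the cause was not tested. Without KlHET NMES replicate 9 the counts in muscle were 43 neighbours and 15 list genes after NMES, and 17 neighbours and 7 list genes in controls. Total-count scaling moved the median log2 difference of all genes in NMES muscle to 0.14, from 0.02 with TMM. DESeq2 gave no adjusted p for Ccl28 and Rtkn2 in control muscle. No paired analysis was possible because the labels give no replicate numbers that KlHET and WT or NMES and control animals share. Erich5, Tmem181c-ps in muscle and Atp10d rest on few reads, which limits how closely their size is known.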

Other observations

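The genes within 5 Mb of Kl, the locus of the altered allele, were counted in the same way. In muscle 7 of 35 passed the limma test after NMES (20.0%, against 19.1% of all genes) and 6 of 35 in controls (17.1%, against 6.0% of all genes). In brain 0 of 38 passed after NMES by limma, edgeR or DESeq2, against 0.0974% of all genes by limma. At an unadjusted limma p below 0.05 there were 4, with no share of all genes at that level to set beside it. In controls 1 of 38 passed by limma and by edgeR and 2 by DESeq2, against 0.0714% of all genes by limma. The 1 gene past the limma test in controls was Hmgb1, which encodes a chromatin protein. Its log2 difference in brain was -0.12 after NMES and -0.27 in controls. In muscle Hmgb1 passed the limma test under both treatments, at -0.45 after NMES and -0.37 in controls.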
